A study of Homo sapiens with 16 samples.

Results

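Polycomb repressive complex 2 (PRC2) is the enzyme complex that methylates lysine 27 of histone H3, a mark of silenced developmental genes. Its transcripts were examined in 6 RNA-seq libraries of 293T cells, a human embryonic kidney line. The 9 members were taken by gene name from the deposited table of 58884 genes: the catalytic subunits EZH1 and EZH2, the core subunits SUZ12 and EED, and the accessory subunits JARID2, AEBP2, PHF1, MTF2 and PHF19. Each name matched 1 gene, and all 9 were among the 16300 genes that were tested, those with a mean level of at least 0.5 TPM. TPM is the share of a transcript per unit of its length, on a scale that gives every library the same total. The cells of every group were wild type and received an siRNA pool for 72 h before RNA was extracted. A scramble pool served as control, and the other pools targeted SETD2, the enzyme that trimethylates lysine 36 of histone H3 (H3K36me3), or hnRNP L, an RNA-binding protein that regulates splicing. There were 2 libraries per siRNA, which the study calls biological replicates. All libraries came from a single cell line and each gene was targeted by a single pool, and the series' ChIP-seq of SETD2 knockout cells was not analysed here.

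PRC2 works as a core of EZH1 or EZH2 with SUZ12 and EED. SUZ12 is the scaffold, EED binds the methyl mark already laid down and so stimulates the enzyme, and EZH2 is the more active methyltransferase of proliferating cells while EZH1 is typical of resting ones. Accessory subunits define 2 forms of the complex, PRC2.1 with a Polycomb-like protein (PHF1, MTF2 or PHF19) and PRC2.2 with JARID2 and AEBP2. The Polycomb-like proteins carry a Tudor domain that can bind H3K36me3, the mark that SETD2 deposits, and H3K36 methylation is known to hinder the enzyme on the same histone tail.

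The siRNA targets were measured first. SETD2 was at 13.38 and 11.7 TPM in the scramble libraries, 4.24 and 4.91 TPM with SETD2 siRNA, and 10.8 and 10.24 TPM with hnRNP L siRNA. HNRNPL was at 341.04 and 457.16, 394.73 and 413.42, and 25.04 and 28.81 TPM in the same order. Each target was lowest in the libraries labelled with its own siRNA, with a log2 fold change of -1.36 ± 0.13 (SE) for SETD2 and -3.85 ± 0.14 for HNRNPL (limma, Benjamini-Hochberg adjusted p = 0.00603 and 8.48e-06). The SETD2 fall missed the threshold without scramble replicate 1 (adjusted p = 0.162), without SETD2 siRNA replicate 2 (adjusted p = 0.082) and without a filter on low values (adjusted p = 0.129). All 8 marker genes of the 293T line were present, with summed levels of 1065.35 to 1696.66 TPM, while summed levels for fibroblast, blood, liver, endothelial and glial markers stayed between 0 and 6.95 TPM, with PTPRC, which marks all leukocytes, listed at 0. Across the tested genes Pearson's r was 0.9862 to 0.9877 between libraries of the same siRNA and 0.9736 to 0.9872 between libraries of different siRNAs, given as a description since all points share the cell line.

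All 9 genes are protein coding. In hg38 (GENCODE 44), EZH1 lies on the minus strand of chromosome 17 at 42700275 to 42745049 and EZH2 on the minus strand of chromosome 7 at 148807257 to 148884321. SUZ12 lies on chromosome 17 at 31937007 to 32001038, EED on chromosome 11 at 86201212 to 86278813, JARID2 on chromosome 6 at 15246069 to 15522042 and AEBP2 on chromosome 12 at 19404045 to 19720801, all on the plus strand. PHF1 lies on chromosome 6 at 33410399 to 33416453 and MTF2 on chromosome 1 at 93079235 to 93139079, both on the plus strand, and PHF19 on the minus strand of chromosome 9 at 120855651 to 120894896.

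The promoters of EZH2, EZH1 and MTF2 are shown because these are the most abundant member and the 2 members whose levels moved farthest from scramble. Each is a RefSeq window of GRCh38.p14 with 250 bases before and 50 after the transcription start, written 5′ to 3′ on the gene's strand. Capitals mark an E2F-type word (TTTGGCGC, TTTCCCGC, TTTGCCGC or TTTCGCGC) or the CCAAT box, on either strand. E2F factors are known to drive genes of proliferating cells, EZH2 among them.

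EZH2, chr7:148884242-148884541, minus strand: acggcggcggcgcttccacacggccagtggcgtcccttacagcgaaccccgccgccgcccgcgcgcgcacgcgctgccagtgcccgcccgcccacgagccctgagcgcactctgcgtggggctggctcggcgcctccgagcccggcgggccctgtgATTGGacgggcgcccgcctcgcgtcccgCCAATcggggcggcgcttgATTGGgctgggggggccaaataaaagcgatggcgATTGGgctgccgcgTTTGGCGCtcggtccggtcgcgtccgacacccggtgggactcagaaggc

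EZH1, chr17:42744991-42745290, minus strand: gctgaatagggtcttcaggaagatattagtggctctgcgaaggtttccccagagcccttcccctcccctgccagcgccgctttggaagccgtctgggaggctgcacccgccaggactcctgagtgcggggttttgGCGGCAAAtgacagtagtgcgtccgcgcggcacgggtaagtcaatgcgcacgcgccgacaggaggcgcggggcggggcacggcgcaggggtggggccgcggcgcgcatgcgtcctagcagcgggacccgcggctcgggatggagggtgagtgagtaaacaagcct

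MTF2, chr1:93079033-93079332, plus strand: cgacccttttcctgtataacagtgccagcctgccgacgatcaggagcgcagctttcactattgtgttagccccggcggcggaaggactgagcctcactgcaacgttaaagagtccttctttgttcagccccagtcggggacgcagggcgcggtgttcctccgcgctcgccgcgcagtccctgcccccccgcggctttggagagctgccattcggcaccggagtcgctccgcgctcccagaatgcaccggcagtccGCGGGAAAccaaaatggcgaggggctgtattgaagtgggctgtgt

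The EZH2 window had 74.7% GC, with 1 E2F-type word and 4 CCAAT boxes. The EZH1 window had 67.0% GC and the MTF2 window 63.0% GC, each with 1 E2F-type word and 0 CCAAT boxes. In the windows shown the E2F-type word lay just downstream of the CCAAT boxes in EZH2, and stood alone in EZH1 and MTF2. RefSeq gave 12 windows for the 9 genes, with 52.3% to 79.7% GC. An E2F-type word stood in 6 of the 12 windows, against 3.31% of all 35116 RefSeq promoters of the same length. By gene, with a match in any window counted, it stood for 6 of the 9 (EZH1, EZH2, SUZ12, AEBP2, MTF2 and PHF19). CCAAT stood in 6 windows, against 34.6% of all promoters, and the GC box GGGCGG in 10 windows, against 45.0%. By gene, counted in the same way, these were 5 and 7. The background percentages are per window and have no counterpart per gene here. No E2F-type word was found in the windows of EED, JARID2 or PHF1, which says only that these letters are not in those windows.

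hnRNP L is known to bind CA-rich RNA, so each gene was also scanned for runs of at least 6 CA units on its own strand. Such runs were found in 5 of the 9 genes, against 42.4% of 12801 tested protein-coding genes, whose median length was 34412 bp. AEBP2 had 3 runs, EED and JARID2 had 2 each, and EZH2 and MTF2 had 1 each. EZH1, SUZ12, PHF1 and PHF19 had 0. All 9 runs were intronic by the GENCODE models except 1 run of 8 units in an exon of JARID2 (chr6:15520690-15520705). EED's runs (from chr11:86208679 and chr11:86223921) lie upstream of its RefSeq promoter window (chr11:86244503-86244802). The same holds for 1 run of AEBP2 (from chr12:19432719, window chr12:19440349-19440648). These runs, and EED in the count of 5, depend on the longer GENCODE spans, whose use in these cells was not examined. The runs of MTF2, which was lower with hnRNP L siRNA, and of EZH2, whose libraries were not lower, are shown with 20 flanking bases on each side, the run itself in capitals and its coordinates given without the flanks.

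MTF2 intron, 11 units, chr1:93130948-93130969, plus strand: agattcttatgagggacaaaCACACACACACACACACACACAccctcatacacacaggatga

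EZH2 intron, 22 units, chr7:148846839-148846882, minus strand: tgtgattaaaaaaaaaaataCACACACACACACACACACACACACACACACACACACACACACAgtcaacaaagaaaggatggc

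The run in EZH2 was the longer of these. PHF1, which is 6055 bp long against a median of 34412 bp, had no run. Its log2 fold change with hnRNP L siRNA was the lowest after that of MTF2 and did not pass the test. A run is a description of sequence, and the runs shown were picked as examples by the levels of their genes with hnRNP L siRNA. Neither binding of hnRNP L to these transcripts nor any link between runs and levels was tested.

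In the control cells the order of levels, in TPM and so per transcript length, ran from EZH2 to JARID2. Mean levels with scramble siRNA were 54.41 TPM for EZH2, 44.81 for MTF2, 31.15 for PHF19, 29.29 for SUZ12, 25.08 for AEBP2, 23.29 for PHF1, 19.62 for EED, 16.94 for EZH1 and 12.23 for JARID2. The neighbours PHF19 and SUZ12 overlapped between their libraries, as did AEBP2 and PHF1, while the other neighbours did not. MTF2 was thus the most abundant accessory transcript, and the core scaffold SUZ12 stood at about the level of PHF19. With SETD2 siRNA, EZH1 moved to the last place (mean 11.26 TPM) below JARID2 (14.67 TPM), and EZH2 (47.89 TPM) and MTF2 (46.8 TPM) overlapped. With hnRNP L siRNA, PHF19 (37.27 TPM) stood above MTF2 (33.46 TPM), and EZH1 (17.54 TPM) and PHF1 (17.51 TPM) overlapped. In bulk RNA, fewer cells that express a gene and less RNA per cell cannot be told apart.

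**Figure D1:**
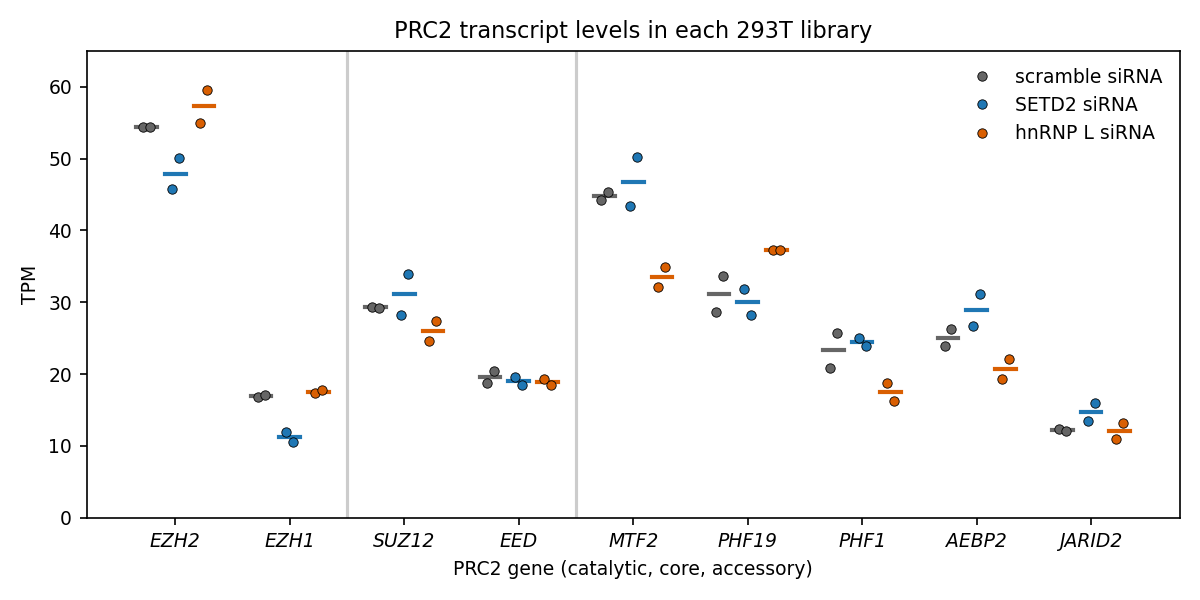
TPM of the 9 PRC2 genes (x axis) in each library (y axis, linear, in TPM), with points for the 2 libraries of each siRNA and a bar at their mean. EZH1 was lower in both SETD2 siRNA libraries (11.96 and 10.55 TPM) than in any other library, and MTF2 was lower in both hnRNP L siRNA libraries (32.06 and 34.86 TPM) than in any other.

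The catalytic subunits were lower in both SETD2 siRNA libraries than in every other library. EZH1 was at 16.75 and 17.13 TPM in the scramble libraries, 11.96 and 10.55 TPM with SETD2 siRNA and 17.32 and 17.76 TPM with hnRNP L siRNA. Both SETD2 siRNA libraries lay below the other 4, and the hnRNP L siRNA libraries lay just above scramble. Against scramble, EZH1 with SETD2 siRNA was at 67.3% of the control on the log2(TPM + 0.5) scale, a log2 fold change of -0.57 ± 0.11 (SE, 95% interval -0.83 to -0.32). In limma the unadjusted p was 0.000705 and the Benjamini-Hochberg adjusted p over all tested genes was 0.129, so EZH1 was not called in this comparison. The adjusted p ran from 0.0571 to 0.339 over the processing alternatives and from 0.132 to 0.6 when a library was left out. EZH1 with hnRNP L siRNA had a log2 fold change of 0.05 ± 0.11 against scramble (adjusted p = 0.814, limma).

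Set directly against SETD2 siRNA, hnRNP L siRNA had EZH1 higher by 0.62 ± 0.11 on the log2 scale (95% interval 0.37 to 0.88). A gene was called where the adjusted p was under 0.05 and the fold change over 1.5, and EZH1 met both here, with limma's adjusted p = 0.0134. EZH1 was the 1 member called among the 3 comparisons. Without SETD2 siRNA replicate 2 or 3 the log2 fold change was 0.707 and 0.534, and without hnRNP L siRNA replicate 1 or 2 it was 0.638 and 0.603. The call was lost in each of these fits, which leave only 1 library in a group. It was also lost without the filter on low values (adjusted p = 0.113).

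EZH2 was at 54.4 and 54.42 TPM with scramble, 45.71 and 50.08 TPM with SETD2 siRNA and 54.99 and 59.52 TPM with hnRNP L siRNA. Both SETD2 siRNA libraries were again the lowest, and no library overlapped between the groups. The log2 fold changes were -0.18 ± 0.10 for SETD2 siRNA (adjusted p = 0.456, limma) and 0.07 ± 0.10 for hnRNP L siRNA (adjusted p = 0.679, limma) against scramble, and 0.26 ± 0.10 between the siRNAs (adjusted p = 0.133, limma). None passed the test.

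EZH2 made up most of the catalytic transcripts in every library. Its share of the summed TPM of EZH1 and EZH2 was 76.46% and 76.06% with scramble, 79.26% and 82.6% with SETD2 siRNA and 76.05% and 77.02% with hnRNP L siRNA. The means were 76.26% ± 0.28 (SD, n = 2), 80.93% ± 2.36 and 76.53% ± 0.69. The 2 SETD2 siRNA libraries lay above all the others. An exact permutation test of 2 against 2 libraries cannot give a two-sided p below 0.333, so shares were not tested.

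None of the core subunits passed a test. SUZ12 was at 29.4 and 29.18 TPM with scramble, 28.22 and 33.96 TPM with SETD2 siRNA and 24.62 and 27.45 TPM with hnRNP L siRNA. The SETD2 siRNA libraries enclosed the scramble values, while both hnRNP L siRNA libraries lay below them. The log2 fold change with hnRNP L siRNA was -0.17 ± 0.12 (adjusted p = 0.395, limma) and with SETD2 siRNA 0.08 ± 0.12 (adjusted p = 0.811, limma), the latter turning to -0.02 when TPM was rescaled without mitochondrially encoded genes. EED, which reads the H3K27 mark, was at 18.75 and 20.49, 19.54 and 18.46, and 19.33 and 18.49 TPM in the same order, and the 3 groups overlapped. Its log2 fold changes against scramble were -0.04 with SETD2 siRNA (95% interval -0.29 to 0.20) and -0.05 with hnRNP L siRNA (-0.29 to 0.19), and the latter turned positive under median-ratio scaling (0.05).

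SUZ12 has a near-identical unprocessed pseudogene, SUZ12P1 (chr17:30731886-30776402), and reads of the pair may be split between them by the counting, so the level of SUZ12 is uncertain. SUZ12P1 was at 32.13 and 33.89 TPM with scramble, 35.98 and 34.28 TPM with SETD2 siRNA and 33.43 and 31.99 TPM with hnRNP L siRNA, as abundant as SUZ12 itself. Neither depletion gave SUZ12P1 a call (log2 fold changes 0.09 and -0.01). EZH2P1, a pseudogene of EZH2, stayed between 0 and 0.78 TPM and the antisense transcript JARID2-AS1 between 0.1 and 0.32 TPM, both under the level tested. PHF1 shares 12 bp with the gene CUTA on the opposite strand, 0.198% of its length.

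The Polycomb-like subunits held the members that differed most from scramble with hnRNP L siRNA. MTF2, which also binds unmethylated CpG-rich DNA, was at 44.28 and 45.34 TPM with scramble, 43.34 and 50.26 TPM with SETD2 siRNA and 32.06 and 34.86 TPM with hnRNP L siRNA. Both hnRNP L siRNA libraries lay below the other 4. Against scramble the log2 fold change was -0.42 ± 0.11 (95% interval -0.67 to -0.17), or 74.9% of the control, with limma's adjusted p = 0.0438. MTF2 therefore passed the adjusted p but not the fold change of 1.5. Of all tested genes, whatever their fold change, 11.2% had an adjusted p under 0.05 in this comparison, and 8.48% had it in the downward direction. Its adjusted p was 0.0642 to 0.265 when a library was left out and 0.0226 to 0.278 over the other alternatives.

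PHF1 was at 20.8 and 25.78 TPM with scramble, 24.96 and 23.85 TPM with SETD2 siRNA and 18.79 and 16.23 TPM with hnRNP L siRNA. Here too the hnRNP L siRNA libraries were the lowest, although the scramble libraries were well apart. The log2 fold change of -0.40 ± 0.13 did not pass the test (unadjusted p = 0.0157, adjusted p = 0.0903, limma). PHF19, which is best known from proliferating and tumour cells, was at 28.69 and 33.61 TPM with scramble, 31.82 and 28.19 TPM with SETD2 siRNA and 37.25 and 37.29 TPM with hnRNP L siRNA. Its hnRNP L siRNA libraries were the highest, with a log2 fold change of 0.26 ± 0.12 (adjusted p = 0.183, limma), which did not pass the test. With SETD2 siRNA the 3 Polycomb-like genes overlapped scramble, with log2 fold changes between -0.05 and 0.07 and adjusted p of 0.843 to 0.881 (limma). These are the PRC2 members that read H3K36me3, and their transcripts did not pass any test after depletion of SETD2.

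The make-up of the Polycomb-like transcripts stood apart in the hnRNP L siRNA libraries for all 3 genes, narrowly for PHF1 (21.33% against 22.18%). The ranges of scramble and SETD2 siRNA met or overlapped for each of the 3 genes. The 3 shares add up to the whole, so they are not independent. For levels of single genes, both hnRNP L siRNA libraries lay beyond both scramble libraries in 56.6% of all tested genes. PHF19 supplied 30.6% and 32.09% of the summed TPM of PHF1, MTF2 and PHF19 with scramble, 31.78% and 27.56% with SETD2 siRNA, and 42.28% and 42.19% with hnRNP L siRNA. MTF2 supplied 47.22% and 43.29%, 43.29% and 49.13%, and 36.39% and 39.44% in the same order. MTF2 was the largest share in all 4 libraries of scramble and SETD2 siRNA, and PHF19 in both hnRNP L siRNA libraries. PHF1 supplied 22.18% and 24.62% with scramble, 24.93% and 23.31% with SETD2 siRNA, and 21.33% and 18.36% with hnRNP L siRNA. Its mean share was 23.4% ± 1.72 (SD, n = 2), 24.12% ± 1.14 and 19.85% ± 2.1 in the same order. A share within a library does not depend on how libraries are scaled against each other.

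**Figure D2:**
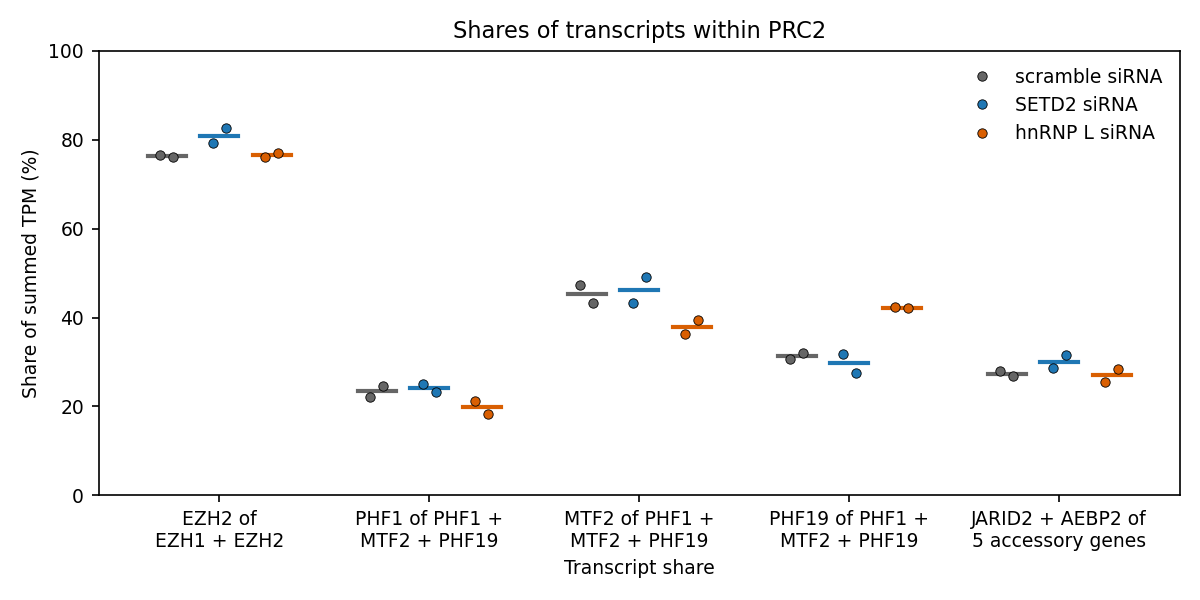
Shares of summed TPM within PRC2 (y axis, percent) for the catalytic pair, the 3 Polycomb-like genes and the pair JARID2 and AEBP2 (x axis), with points for libraries and bars for means of 2. The share of PHF19 was 42.28% and 42.19% with hnRNP L siRNA and at most 32.09% elsewhere, and the share of EZH2 was at least 79.26% with SETD2 siRNA and at most 77.02% elsewhere.

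The PRC2.2 subunits were highest with SETD2 siRNA. JARID2, which recruits the complex to its targets and is itself methylated by it, was at 12.35 and 12.12 TPM with scramble, 13.42 and 15.92 TPM with SETD2 siRNA and 10.92 and 13.18 TPM with hnRNP L siRNA. AEBP2, a zinc finger protein that stabilises the complex, was at 23.86 and 26.3, 26.7 and 31.18, and 19.31 and 22.04 TPM in the same order. Both genes were above scramble in both SETD2 siRNA libraries, by 0.25 ± 0.14 for JARID2 (adjusted p = 0.459, limma) and 0.20 ± 0.12 for AEBP2 (adjusted p = 0.505, limma) on the log2 scale, and neither passed the test. AEBP2 with hnRNP L siRNA lay below scramble in both libraries by a log2 fold change of -0.27 ± 0.12 (adjusted p = 0.185, limma), while JARID2 overlapped scramble. JARID2 and AEBP2 together made up 27.35% ± 0.72 (SD, n = 2) of the transcripts of the 5 accessory genes with scramble, 30.07% ± 2.06 with SETD2 siRNA and 27.02% ± 2.08 with hnRNP L siRNA. The share was 28.61% and 31.53% in the SETD2 siRNA libraries and at most 28.5% in the others.

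Counted over the complex, SETD2 siRNA against scramble gave 0 of 9 members called, where 0.104% of all tested genes were called (9 higher and 8 lower). In this limma fit 1 member, EZH1, had an unadjusted p under 0.05, against 13.1% of all genes. Both libraries lay beyond both scramble libraries for 4 members (EZH1 and EZH2 lower, JARID2 and AEBP2 higher), against 43.5% of all genes (22.9% higher and 20.6% lower), a share near the background. The median log2 fold change was 0.06 over the members and 0.01 over all tested genes.

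hnRNP L siRNA against scramble gave 0 of 9 members called by limma, where 6.76% of all tested genes were called (286 higher and 816 lower). With median-ratio scaling the split over all genes was 430 higher and 516 lower, and with quantile normalization 424 and 482. MTF2 passed the adjusted p alone, and MTF2 and PHF1 had an unadjusted p under 0.05, against 28.4% of all genes. Both libraries lay beyond both scramble libraries for 7 members (EZH1, EZH2 and PHF19 higher, SUZ12, AEBP2, PHF1 and MTF2 lower), against 56.6% of all genes (18.8% higher and 37.8% lower). The median log2 fold change was -0.05 over the members and -0.08 over all tested genes.

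hnRNP L siRNA against SETD2 siRNA gave 1 of 9 members called, EZH1, where 6.84% of all genes were called (350 higher and 765 lower, and 454 and 472 with median-ratio scaling). MTF2 and AEBP2 passed the adjusted p alone in limma (adjusted p = 0.0295 and 0.0445), with log2 fold changes of -0.48 ± 0.11 and -0.47 ± 0.12. Whatever the fold change, 10.8% of all genes had an adjusted p under 0.05 here, and 7.99% were lower. PHF1 had a log2 fold change of -0.47 ± 0.13 (adjusted p = 0.056, limma) and EED of -0.01 ± 0.11. Both libraries lay beyond both of the other group for every member but EED, 3 higher and 5 lower, against 59.8% of all genes (18.6% higher and 41.2% lower). An unadjusted p under 0.05 was found for 6 members, against 28.5% of all genes. The median was -0.25 over the members and -0.10 over all genes. The comparisons against scramble share the scramble libraries, and the direct comparison shares its libraries with both, so the 3 are not independent.

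**Figure D3:**
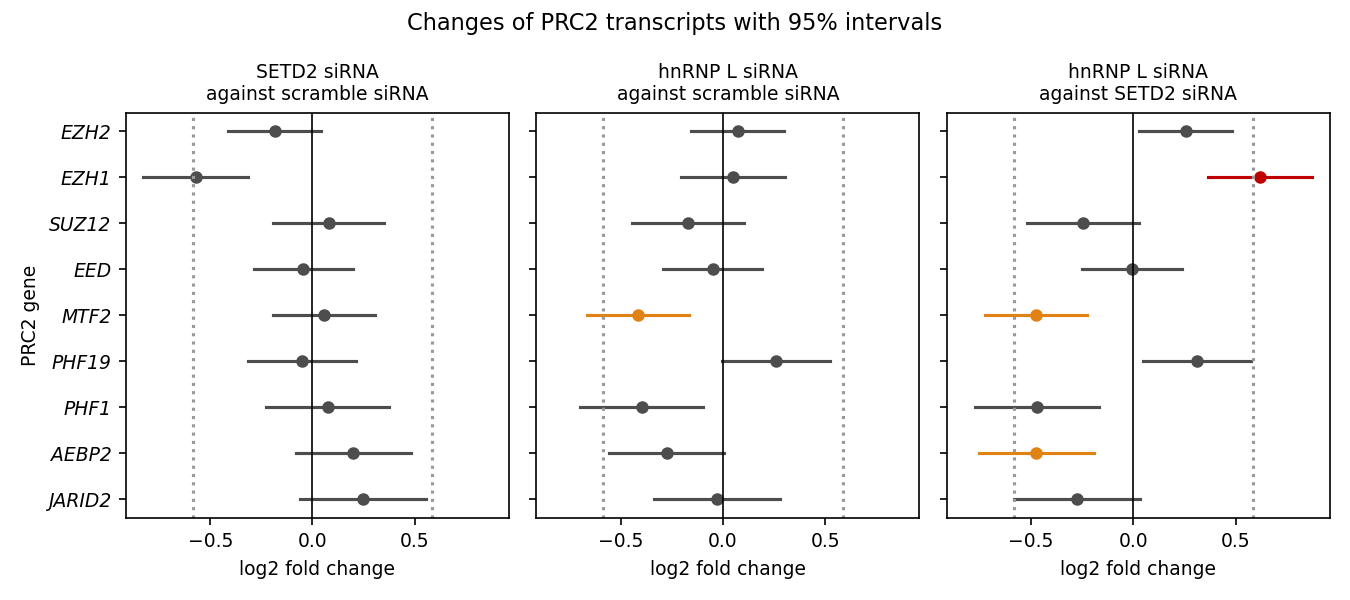
Log2 fold changes on the log2(TPM + 0.5) scale (x axis) of the 9 PRC2 genes (y axis) in 3 comparisons, with 95% intervals from limma. Dotted lines mark a fold change of 1.5, red marks the gene past both thresholds (EZH1 at 0.62), and orange marks genes past the adjusted p alone (MTF2 at -0.42 and -0.48, AEBP2 at -0.47).

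EZH1 had the largest change of any member against scramble, and the genes whose profile over the 6 libraries was nearest to it were listed by the root mean square difference of centred log2 values. They were AC010999.2 (0.04), COX7A2L (0.06), which assembles respiratory supercomplexes, and MAT2A (0.07), which makes S-adenosylmethionine, the methyl donor of EZH1 and SETD2. MAT2A was at 92.57 and 85.06 TPM with scramble, 60.49 and 58.97 TPM with SETD2 siRNA, and 92.65 and 88.93 TPM with hnRNP L siRNA. COX7A2L was at 94.52 and 99.37, 64.28 and 64.94, and 96.87 and 96.21 TPM. AC010999.2 was at 0.83 and 0.91, 0.54 and 0.37, and 0.88 and 0.9 TPM in the same order, near the 0.5 TPM needed for testing. As for EZH1, both SETD2 siRNA libraries were the lowest for each. Since the likeness was found by searching all tested genes, it is a description with no test.

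Of 6 further PRC2 partners, 5 were tested. EPOP, a PRC2.1 partner that links the complex to Elongin, was at 10.17 and 10.39 TPM with scramble, 11.97 and 12.09 TPM with SETD2 siRNA and 6.65 and 6.41 TPM with hnRNP L siRNA, and the 3 groups did not overlap. It fell with hnRNP L siRNA against scramble by 0.62 ± 0.11 on the log2 scale (adjusted p = 0.0134, limma) and was lower by a log2 fold change of -0.83 ± 0.11 against SETD2 siRNA (adjusted p = 0.00507, limma). With SETD2 siRNA its log2 fold change was 0.22 ± 0.11 (adjusted p = 0.438, limma). Against scramble the fall was smaller than 1.5-fold under median-ratio scaling (-0.52) and quantile normalization (-0.50), and the adjusted p was 0.0516 to 0.103 without any 1 of the 4 libraries compared. The call against SETD2 siRNA was lost in the same way, with adjusted p of 0.0549 to 0.065 (limma).

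The histone-binding subunits RBBP4 and RBBP7, which PRC2 shares with other complexes, were far more abundant than the PRC2 genes themselves. RBBP4 was at 244.51 and 279.79, 315.99 and 329.2, and 232.1 and 268.76 TPM with scramble, SETD2 and hnRNP L siRNA. RBBP7 was at 449.55 and 451.82, 457.03 and 505.44, and 476.75 and 518.91 TPM. RBBP4 was above scramble in both SETD2 siRNA libraries (log2 fold change 0.30 ± 0.11, adjusted p = 0.319, limma), and neither gene passed a test. LCOR and LCORL, whose loci encode the PRC2.1 partners known as PALI proteins, were not called either. LCORL had a log2 fold change of 0.48 ± 0.15 with hnRNP L siRNA (adjusted p = 0.0698, limma), and was called under quantile normalization alone of the alternatives (0.60, adjusted p = 0.0272). EZHIP, an inhibitor of PRC2 that mimics a mutated histone tail, is listed under the older symbol CXorf67 and lay between 0.15 and 0.43 TPM, below the level tested.

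All 27 listed genes of Polycomb repressive complex 1 (PRC1), which ubiquitylates histone H2A, were tested. With SETD2 siRNA 0 of 27 were called and 0 had an unadjusted p under 0.05 in limma, against 0.104% and 13.1% of all genes. With hnRNP L siRNA 1 rose and 1 fell, 7.41% of the list, a share near the 6.76% of all genes. PCGF5, the RING finger partner of variant PRC1.5, was at 13.09 and 13.39 TPM with scramble, 10.39 and 12.19 TPM with SETD2 siRNA and 21.79 and 20.17 TPM with hnRNP L siRNA. It rose by 0.64 ± 0.12 against scramble (adjusted p = 0.0138, limma) and was higher by 0.87 than with SETD2 siRNA (adjusted p = 0.00529, limma). L3MBTL2, a subunit of variant PRC1.6, was at 19.78 and 21.27, 23.59 and 24.62, and 13.15 and 13.51 TPM in the same order. It fell by 0.60 ± 0.11 against scramble (adjusted p = 0.0114, limma), which became less than 1.5-fold under median-ratio scaling (-0.51). The calls of both genes against scramble were lost when single libraries were left out, with adjusted p of up to 0.133 for PCGF5 and 0.109 for L3MBTL2 (limma). Against SETD2 siRNA, L3MBTL2 was lower by a log2 fold change of -0.83 (adjusted p = 0.00406, limma). That call was lost without SETD2 siRNA replicate 2 or 3 or hnRNP L siRNA replicate 1, and that of PCGF5 without SETD2 siRNA replicate 2 or hnRNP L siRNA replicate 1, with adjusted p of 0.0505 to 0.0707.

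Of the H3K27 demethylases, KDM6A was not called. KDM6B was at 9.43 and 8.3 TPM with scramble, 10.19 and 13.05 TPM with SETD2 siRNA and 6.83 and 7.68 TPM with hnRNP L siRNA. It was lower with hnRNP L siRNA than with SETD2 siRNA by a log2 fold change of -0.64 ± 0.15 (adjusted p = 0.0318, limma), and was called in neither comparison with scramble. That call was lost when any library was left out, with adjusted p of 0.0523 to 0.21 (limma), and the difference was under 1.5-fold with median-ratio scaling (-0.54). BAP1, which removes the PRC1 mark from H2A, and its partners ASXL1, ASXL2 and ASXL3 were not called in any comparison. BAP1 was the most abundant of them, at 44.34 to 55.71 TPM, and ASXL3 the least, at 1.21 to 1.61 TPM.

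HOX genes, the classic targets silenced by PRC2, were widely expressed in these cells. Of 39 genes 34 were tested, HOXA9 reached 170.63 to 235.22 TPM, and HOXB1 was listed at 0 in every library. With SETD2 siRNA 0 of 34 were called by limma, and 3 (HOXB7, HOXC9 and HOXD11) had an unadjusted p under 0.05, 8.82% of the list against 13.1% of all genes. The fold change was positive for 25 and negative for 9, with a median of 0.17, against 8569 and 7731 of all genes with a median of 0.01. With hnRNP L siRNA 17 were positive and 17 negative, and 2 of 34 fell and 0 rose, 5.88% of the list against 6.76% of all genes. HOXB13 was at 5.82 and 6.58 TPM with scramble and 3.61 and 3.91 TPM with hnRNP L siRNA (log2 fold change -0.65 ± 0.13, adjusted p = 0.0194, limma), and HOXD9 at 7.58 and 7.11 TPM and 4.48 and 4.75 TPM (-0.62 ± 0.13, adjusted p = 0.0208, limma). HOXB6 and HOXD13 passed the adjusted p alone, in the upward direction (log2 fold changes 0.57 and 0.55), and under median-ratio scaling both were called (0.67 and 0.64). Whatever the fold change, 2 of 34 HOX genes were higher and 2 lower at an adjusted p under 0.05. Of all 16300 genes, 443 were higher and 1383 lower by that rule, 11.2% together. Over all genes, median-ratio scaling called 430 higher and 516 lower. Under median-ratio scaling HOXB13 (-0.56) and HOXD9 (-0.53) fell short of the fold change, and leaving out any library of the 2 groups ended both calls, with adjusted p of 0.0606 to 0.15 (limma). Against SETD2 siRNA, HOXB13 (-0.86 ± 0.13, adjusted p = 0.00824, limma) and HOXB7 (-0.62 ± 0.11, adjusted p = 0.013, limma) were lower with hnRNP L siRNA, and neither call held without any single library of these groups. HOXB7 was under 1.5-fold with median-ratio scaling (-0.52). The calls of HOXB13 and HOXB7 were 5.88% of the list, against 6.84% of all genes.

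**Figure D4:**
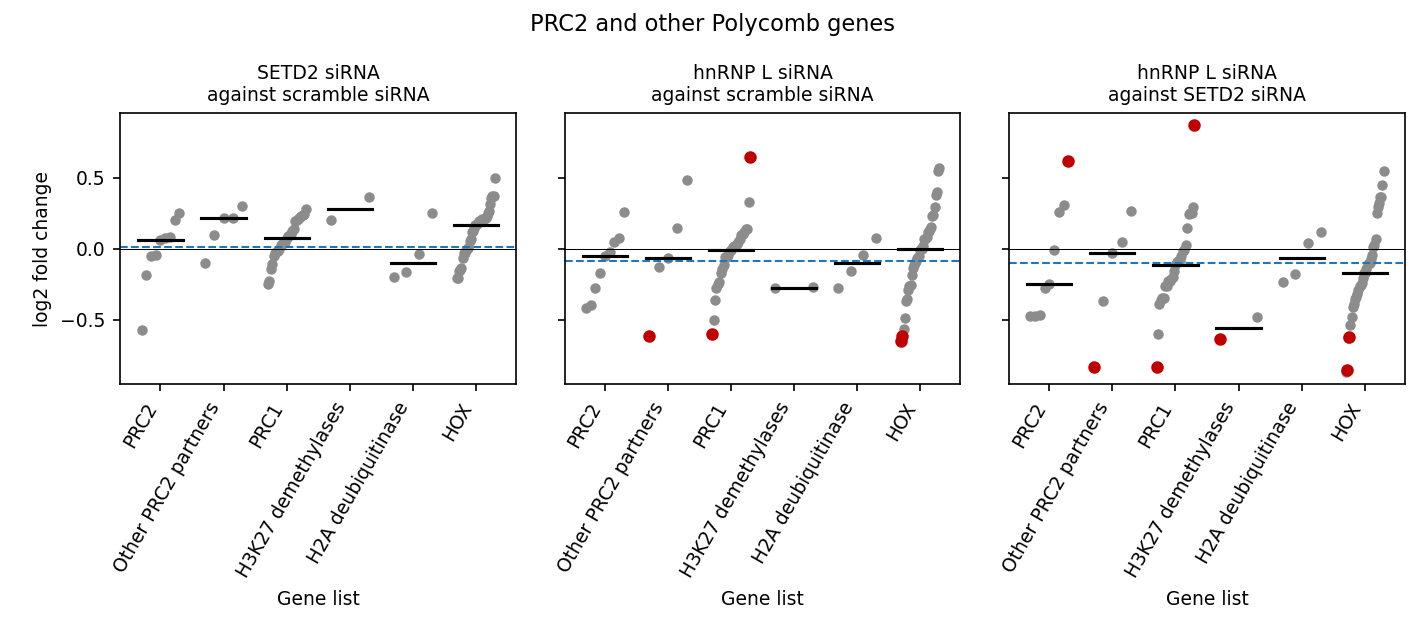
Log2 fold changes (y axis) of the tested genes of PRC2 and 5 related lists (x axis) in 3 comparisons, with called genes in red, list medians as black bars and the median of all tested genes as a dashed line. No gene of these lists was called with SETD2 siRNA against scramble, and the called genes with hnRNP L siRNA against scramble were EPOP, L3MBTL2, HOXB13 and HOXD9 (lower) and PCGF5 (higher).

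Of the 72 tested genes on these lists outside PRC2, limma called 0 with SETD2 siRNA against scramble, where 0.104% of all genes were called. An unadjusted p under 0.05 was found for 6 of the 72 there, against 13.1% of all genes. With hnRNP L siRNA against scramble 5 were called (1 higher and 4 lower). Between the siRNAs 6 were called (1 higher and 5 lower). The shares of 6.94% and 8.33% with hnRNP L siRNA stood near the 6.76% and 6.84% called over all genes. The split against scramble turned with the scaling, to 3 higher and 0 lower under both median-ratio scaling and quantile normalization.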

How the data were processed

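RNA from 293T cells was sequenced in 2 libraries per siRNA. Paired reads were aligned by the authors with STAR 2.6.1c (hg38, Ensembl 96 models). The authors made and deposited TPM per gene with RSEM 1.3.0. Read counts cannot be recovered from TPM, which leaves counting error and detection limits unknown and the precision that of 2 libraries. Whether counting used strand is not given in the sources used here. Groups follow the sample labels.

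TPM was transformed to log2(TPM + 0.5), which understates changes of low genes. The 16300 genes whose TPM averaged 0.5 or more were fitted with limma 3.58.1 in R 4.3.3 (1 mean per siRNA, moderated with a variance trend), with Benjamini-Hochberg adjustment over all of them. A call needed an adjusted p below 0.05 together with a fold change over 1.5, and two-sided tests were used throughout. The p-values rest on the spread between libraries of the same siRNA, pooled over all groups and moderated across genes. That these libraries have separate origins rests on the study's statement. The fit was tested on simulated data. Plots were drawn with Matplotlib 3.10.9.

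The members, gene lists and tests were chosen with earlier results of these data known. Named genes are the 9 members, both siRNA targets, all further PRC2 partners, H3K27 demethylases and BAP1 with its ASXL partners, called PRC1 and HOX genes, genes named after a member, and the 3 genes most like the member that moved most. HOXA9, HOXB1, HOXB6, HOXC9, HOXD11 and HOXD13 were named after their values were seen. EZHIP was matched by gene ID.

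Alternatives were other pseudocounts, filters, scalings and fits, no fold cut-off, leaving out each library, and blocking scramble with hnRNP L siRNA libraries by replicate number. Promoter and gene sequences came from RefSeq and GRCh38 by coordinates. ChIP-seq was not analysed here.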

Additional observations from a re-analysis of the deposited data

How the results depend on the processing

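Over the alternatives other than leaving out a library, 1081 of 1152 gene values kept direction and side of the thresholds, 34 lost the call, 10 gained it and 27 changed sign. The filters, the fits, the blocks and the fold cut-off cannot alter a log2 fold change, so the direction was fixed under them. The sign changes came from median-ratio scaling, quantile normalization and rescaling without mitochondrially encoded genes. The count of kept directions is therefore no measure of robustness. PRC2 calls with SETD2 siRNA against scramble were 0 throughout. With hnRNP L siRNA against scramble they rose from 0 to 1 without the fold cut-off. Between the siRNAs they went from 1 to 0 without the filter and to 3 without the fold cut-off, with 0 to 1 when a library was left out. Calls in the other Polycomb lists with hnRNP L siRNA against scramble, 5 in all, became 3 with a pseudocount of 1, under median-ratio scaling, under quantile normalization and in a fit of the 2 groups alone, 1 without the filter, and 0 to 5 when a library was left out. Between the siRNAs they went from 6 to 2 without the filter and to 0 to 6 when a library was left out.

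Scramble and hnRNP L siRNA share the replicate numbers 1 and 2, but the deviations of same-numbered libraries correlated at -0.126 across 16300 genes, so the numbers were not taken to pair them. With the replicate block, 0 PRC2 genes, 2 other Polycomb genes and 715 of all genes were called, and with a block of crossed numbers, chosen after seeing the data, 0, 5 and 1406. No block was fitted for SETD2 siRNA, whose libraries, numbered 2 and 3, share only the number 2 with the others.

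Calls over all genes were 17, 1102 and 1115. Without the filter they were 5, 85 and 65, where 58884 genes were tested, and without the fold cut-off 17, 1826 and 1753. With SETD2 siRNA against scramble they were 27 at a mean TPM of at least 1 and 60 among protein-coding and lncRNA genes. Leaving out a library gave 8 to 38, 172 to 821 and 127 to 1006. The all-gene median with hnRNP L siRNA moved from -0.08 to 0.01 under median-ratio scaling and -0.13 without mitochondrially encoded genes.

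Values near 0 changed sign. With SETD2 siRNA against scramble and no mitochondrially encoded genes, log2 fold changes became -0.017 for SUZ12, -0.022 for PHF1, -0.038 for MTF2, -0.065 for HNRNPL, -0.005 for RBBP7 and -0.008 for SUZ12P1, and under quantile normalization -0.094 for HNRNPL and -0.033 for RBBP7. With hnRNP L siRNA against scramble, median-ratio scaling and quantile normalization gave 0.047 and 0.054 for EED, 0.069 and 0.102 for JARID2, 0.03 and 0.052 for ASXL3, 0.086 and 0.065 for SUZ12P1, the former 0.033 for RBBP4 and the latter 0.006 for LCOR, and dropping mitochondrially encoded genes gave -0.033 for HOXC9. Between the siRNAs they gave 0.097 and 0.105 for EED, 0.068 and 0.069 for LCOR, and 0.003 and 0.013 for SUZ12P1, and dropping mitochondrially encoded genes gave 0.041 for EED and 0.017 for LCOR. The cause was not tested.

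Leaving out a library changed the sign of values with these ranges. Against scramble, SETD2 siRNA gave -0.053 to 0.21 for SUZ12, -0.107 to 0.018 for EED, -0.078 to 0.225 for PHF1, -0.047 to 0.164 for MTF2, -0.164 to 0.061 for PHF19, -0.178 to 0.244 for HNRNPL, -0.302 to 0.092 for LCOR, -0.222 to 0.14 for ASXL2 and -0.002 to 0.362 for HOXD13. hnRNP L siRNA gave -0.113 to 0.012 for EED, -0.157 to 0.103 for JARID2, -0.172 to 0.039 for RBBP4, -0.298 to 0.034 for LCOR, -0.051 to 0.025 for SUZ12P1, -0.096 to 0.126 for HOXC9 and -0.004 to 0.285 for HOXD11. Between the siRNAs it gave -0.046 to 0.034 for EED, -0.023 to 0.122 for RBBP7, -0.225 to 0.169 for LCOR, -0.104 to 0.189 for ASXL1 and -0.014 to 0.247 for ASXL3.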
